A study of Mus musculus with 6 samples.

Results

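Pou5f1, Utf1, L1td1, Tdh, Eras, Dnmt3a and Dnmt3b are 7 genes of pluripotent cells and of the epiblast, the layer of the embryo from which all of its later tissues arise. They were taken by symbol from the UMI count tables of mouse neural tube organoids, and all 7 were found among the 17296 symbols that both deposited tables hold. The starting cells were Sox1::eGFP;Bra::mCherry mESCs, a mouse embryonic stem cell line with 1 reporter for Sox1 and another for T. They grew in Matrigel, in a medium with bFGF and activin-A until day 3 and without either factor afterwards. Droplet-based single-cell sequencing of transcript ends (10x Genomics) gave 6 libraries, each made from a pool of organoids (100 per condition, per the labels). They comprise 1 library of organoids that had not elongated by day 6 (non-elongated day 6), 2 of elongated organoids at day 6 (replicates 1 and 2, labelled batch 1 and batch 2), and single libraries of elongated organoids from day 7, from day 8 and from day 10, all freed from their first Matrigel on day 6 and embedded again. All 5 groups share the cell line and the culture up to day 6. No label says whether the day 6 replicates were separate cultures. The p-values of the comparisons between groups thus measure the spread between those libraries, which may be technical.

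Pou5f1 (also called Oct4) is the octamer-binding transcription factor without which pluripotency is lost, and it stays on in the epiblast until the germ layers form. Utf1 is a chromatin-associated factor and L1td1 an RNA-binding protein of pluripotent cells. Tdh is the threonine dehydrogenase that feeds one-carbon metabolism in mouse embryonic stem cells, and Eras is a constitutively active Ras-like protein of those cells that signals through phosphoinositide 3-kinase. Dnmt3a and Dnmt3b are the enzymes that set new DNA methylation. In the embryo Dnmt3b is high in the epiblast and early neural plate, while Dnmt3a is the more widespread of the pair at later stages.

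In mm10 with the GENCODE M21 annotation, Pou5f1 lies on chromosome 17 (35506018 to 35510772, plus strand), Utf1 on chromosome 7 (139943789 to 139945112, plus), L1td1 on chromosome 4 (98726734 to 98738480, plus) and Tdh on chromosome 14 (63492347 to 63509092, minus). Eras lies on chromosome X (7924276 to 7928607, minus), Dnmt3a on chromosome 12 (3806007 to 3914443, plus) and Dnmt3b on chromosome 2 (153649450 to 153687730, plus). An annotated gene on the opposite strand overlaps an exon of 5 of the 7, namely Gm19553 at Pou5f1, Gm17232 at Tdh, Pcsk1n at Eras, Dnmt3aos at Dnmt3a and Dnmt3bos at Dnmt3b. The sources used here do not state whether counting used the strand, so reads of these pairs cannot be told apart with certainty. Dnmt3b also has a close relative beside it, Dnmt3c. It is listed in the table of the later libraries, where it held 3 UMIs in elongated day 6 replicate 2 and 0 in the libraries of day 7, day 8 and day 10.

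RefSeq promoters of GRCm38.p6, from 250 bases before the start site to 50 after it, were matched for 6 of the 7 genes, with 9 start sites in all. Of these, 4 are shown because they stand for the genes with the largest drop in CPM after day 6 (Pou5f1, Dnmt3b), for a core gene with 0 UMIs by day 10 (Utf1) and for the gene that was not called lower (Dnmt3a); for Pou5f1 and Dnmt3a it is the first of several start sites. Capitals mark GC boxes, GGGCGG on either strand.
Pou5f1, chr17:35505782-35506081, plus strand: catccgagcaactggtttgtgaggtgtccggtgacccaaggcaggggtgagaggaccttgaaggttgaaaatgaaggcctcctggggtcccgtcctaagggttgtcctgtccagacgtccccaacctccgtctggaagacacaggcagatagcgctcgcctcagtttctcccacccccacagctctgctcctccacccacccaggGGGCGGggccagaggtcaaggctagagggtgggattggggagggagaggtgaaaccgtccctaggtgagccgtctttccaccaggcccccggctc
Utf1, chr7:139943606-139943905, plus strand: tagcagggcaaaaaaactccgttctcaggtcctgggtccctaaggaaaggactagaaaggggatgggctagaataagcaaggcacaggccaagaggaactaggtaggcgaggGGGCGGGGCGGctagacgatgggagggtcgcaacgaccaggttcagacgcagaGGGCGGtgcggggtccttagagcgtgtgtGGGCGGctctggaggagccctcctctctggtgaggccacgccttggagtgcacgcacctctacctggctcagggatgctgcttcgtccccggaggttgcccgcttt
Dnmt3b, chr2:153649199-153649498, plus strand: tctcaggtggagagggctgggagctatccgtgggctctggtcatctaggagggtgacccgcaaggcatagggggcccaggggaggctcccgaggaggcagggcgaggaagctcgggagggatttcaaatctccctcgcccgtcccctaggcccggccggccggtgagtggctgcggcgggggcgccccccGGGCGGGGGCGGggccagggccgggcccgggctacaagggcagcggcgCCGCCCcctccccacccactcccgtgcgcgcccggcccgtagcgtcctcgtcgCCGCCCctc
Dnmt3a, chr12:3806730-3807029, plus strand: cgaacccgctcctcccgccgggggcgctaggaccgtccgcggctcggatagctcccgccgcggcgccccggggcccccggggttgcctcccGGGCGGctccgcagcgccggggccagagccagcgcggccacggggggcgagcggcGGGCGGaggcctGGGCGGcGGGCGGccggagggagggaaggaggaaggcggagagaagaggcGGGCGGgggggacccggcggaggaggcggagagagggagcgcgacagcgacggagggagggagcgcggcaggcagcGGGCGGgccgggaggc
GC boxes were found at 7 of the 9 start sites and in 5 of the 6 genes (all but L1td1), beside 35.7% of the 32851 mouse promoters in the same table. CpG dinucleotides numbered 46 in the printed Dnmt3a promoter and 30 in that of Dnmt3b, against 11 in Pou5f1, 17 in Utf1, 14 in L1td1 and 8 in Eras, where the median of all promoters was 7. The promoters of the methylation enzymes were thus the densest in CpG, at percentiles 98.4 and 88.3 of all promoters. None of the 9 held the TATA box TATAAA or the octamer ATGCAAAT on either strand (13.6% and 1.74% of all promoters did), and 1, a later start site of Dnmt3a, held the E-box CACGTG (7.15%). Such matches describe letters in these windows only.

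The libraries held 2076 to 3677 cells and 74072752 to 152742819 UMIs, with median UMIs per cell from 22053 (day 10) to 59014 (elongated day 6 replicate 2). Any 2 libraries shared 1 to 4 cell barcodes. The day 6 libraries lie in 2 tables: the non-elongated library and replicate 1 in one, replicate 2 with the later days in the other, and the authors named the cell classes separately in each. In the first table the library names are initials, read here as non-elongated and elongated, which the labels do not spell out. Against the labelled tissue, the 10 neural progenitor markers summed to 303 CPM (non-elongated day 6), 546 and 645 CPM (elongated day 6) and 2020 to 3881 CPM later. Vim and Fabp7 gave 1274 and 1108 CPM of the highest sum, at day 8. Sox1 alone of the markers was lower at day 10 (16.9 CPM) than in both elongated day 6 libraries (43.1 and 70.9 CPM). Neuron markers reached 2680 CPM at day 10.

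Levels are given as scaled CPM, that is UMIs summed over the cells of a library, as counts per 1e6 UMIs with TMM scaling. Pou5f1 measured 234 CPM in the non-elongated library, then 59.3 and 52.5 CPM in elongated day 6 replicates 1 and 2, and 1.89, 1.52 and 1.73 CPM at day 7, day 8 and day 10. The order was non-elongated day 6 above both elongated day 6 libraries, and those far above the 3 later ones, which lay close together.

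Utf1 measured 27.8 CPM in the non-elongated library, then 8.48 and 4.12 CPM in the elongated day 6 replicates, and 0.118, 0.0336 and 0 CPM at days 7, 8 and 10. For L1td1 the values were 34.1, then 5.97 and 5.25, then 0.222, 0.0252 and 0 CPM. Tdh stood at 14.1 CPM against 1.86 and 0.417 CPM, and no UMI of it was found from day 7 on. These 3 genes kept the order seen for Pou5f1, and they ended at 0 UMIs by day 10. The duplicates lay close for L1td1 and apart for Utf1 and Tdh, with means of 5.61 ± 0.51, 6.30 ± 3.1 and 1.14 ± 1.0 CPM (SD, n = 2).

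Eras measured 16.7 CPM in the non-elongated library, then 9.50 and 9.48 CPM in the elongated day 6 replicates, 0.526 CPM at day 7 and 0 CPM afterwards. It was the core gene with the smallest distance between non-elongated and elongated organoids. Dnmt3b measured 209 CPM, then 132 and 148 CPM, then 31.5, 14.5 and 7.02 CPM, lower in each later library than in the one before. Dnmt3a measured 22.4 CPM, 19.3 and 23.0 CPM, and 22.9, 23.3 and 35.0 CPM. Its non-elongated value lay between the elongated replicates, and only the day 10 library stood above the rest.

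**Figure D1:**
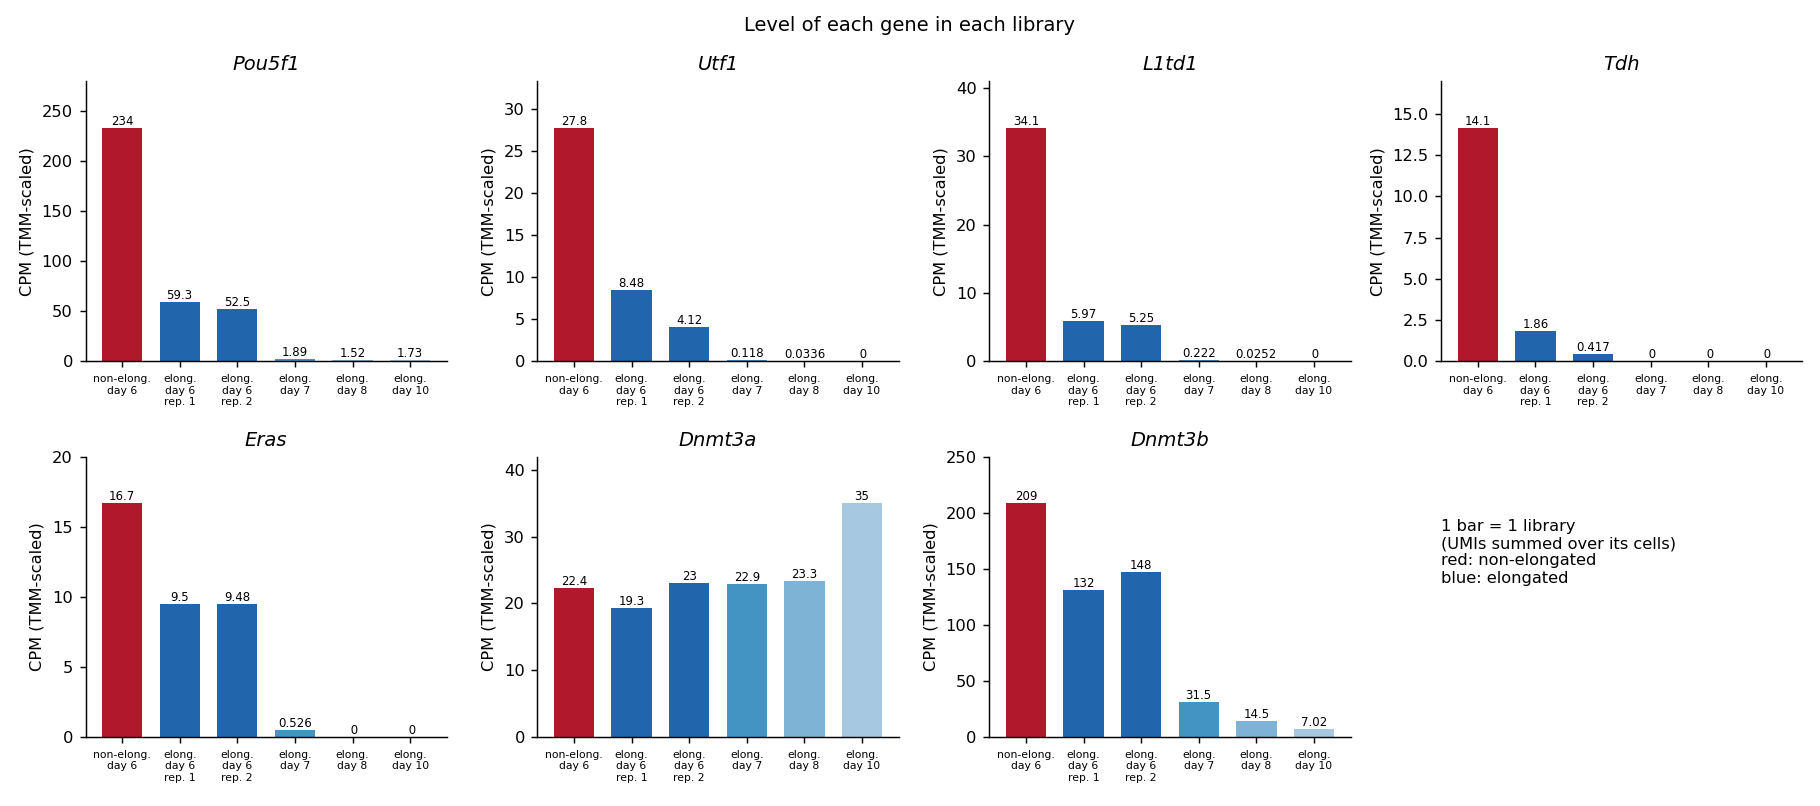
Scaled CPM (vertical axis, from 0, a separate scale for each gene) of the 7 genes in the 6 libraries; each bar is 1 library. Pou5f1 drops from 59.3 and 52.5 CPM in the elongated day 6 libraries to between 1.52 and 1.89 CPM later, Dnmt3b descends to 7.02 CPM, and Dnmt3a is highest at day 10 with 35.0 CPM.

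The day 6 comparison asks how organoids that did not elongate differ from those that did. Pou5f1, Utf1, L1td1 and Tdh were each higher in the non-elongated library than in either elongated library, by 4.18-fold, 4.41-fold, 6.09-fold and 12.4-fold over the mean of the duplicates, and Eras and Dnmt3b by 1.76-fold and 1.49-fold. None of these differences passed the test. With edgeR, 0 of the 7 genes and 0% of the 16379 genes tested were called, while 1137 genes had an unadjusted p under 0.05. Log2 fold changes were 2.06 ± 0.25 for Pou5f1 (SE; adjusted p 0.132), 2.61 ± 0.32 for L1td1 (0.132), 2.14 ± 0.44 for Utf1 (0.275) and 3.65 ± 0.75 for Tdh (0.275). Eras (0.81 ± 0.33, adjusted p 0.670), Dnmt3b (0.58 ± 0.25, 0.728) and Dnmt3a (0.08 ± 0.29, 0.999) were closer to 0. Scaling and tool moved the call: DESeq2, with its own size factors, called Pou5f1, L1td1 and Utf1 among 127 genes, and edgeR itself, with RLE in place of TMM scaling, called Pou5f1 and L1td1 among 21 (adjusted p 0.0358 each). The spread in this test has 1 residual degree of freedom, from the elongated duplicates, and it is also taken to hold for the single non-elongated library.

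Against replicate 1 alone, which shares its table, the non-elongated library stood 1.98 higher on the log2 scale for Pou5f1, 1.71 for Utf1, 2.51 for L1td1 and 2.91 for Tdh. Against replicate 2 the values were 2.15, 2.75, 2.70 and 5.02. Each of these 4 genes was therefore higher against either library, and for Tdh the distance between the duplicates themselves (−2.11, replicate 2 minus replicate 1) was of the same order as the difference. As folds, Tdh stood 7.60-fold and 33.9-fold higher and Utf1 3.28-fold and 6.74-fold higher against replicates 1 and 2.

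Markers of other cell types differed in the same library. All 10 surface ectoderm markers were above both duplicates there, with sums of 1015 CPM against 279 and 148 CPM, and all 8 trophoblast markers likewise (186 against 67.0 and 21.3 CPM, of which Cdx2, also a caudal gene, gave 105, 45.0 and 7.68 CPM). Caudal epiblast and neuromesodermal markers were above both in 7 of 10 (310 against 143 and 110 CPM), and mesoderm markers in 8 of 9 measured. Neural progenitor markers were below both in 8 of 10. The part of these cell types in the higher pluripotency genes was not tested at the level of whole libraries. In such sums, fewer cells of a type and less RNA per cell cannot be told apart.

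The authors' classes separate these to a degree. They were built from the same counts, so levels by class are a description, with 1 library per class and group and intervals that cover counting error only. In CPM without TMM scaling, the level of Pou5f1 in caudal epiblast was 337 CPM for non-elongated organoids and 144 CPM for elongated replicate 1, a ratio of 2.35 (95% interval 2.24 to 2.46). It was 225 and 71.8 CPM in the surface ectoderm class (ratio 3.13), 129 and 22.1 CPM in the hindbrain class (5.81) and 41.6 and 5.12 CPM in the spinal cord class (8.14, 6.33 to 10.5). The excess was thus found within hindbrain and spinal cord too, with larger ratios there than in caudal epiblast. The libraries lay closer in the anterior epiblast class (142 and 108 CPM, ratio 1.31, 1.18 to 1.46). They also did in the midbrain class (24.9 and 19.3 CPM, ratio 1.29, 0.904 to 1.85). Only the midbrain interval included 1.

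L1td1 and Tdh were highest in the caudal epiblast class of both libraries, L1td1 at 53.4 and 14.5 CPM and Tdh at 23.3 and 5.81 CPM. In anterior epiblast L1td1 was lower in the non-elongated library, at 5.34 CPM against 11.8 CPM in replicate 1 (ratio 0.452, 0.271 to 0.721). Utf1 was highest in different classes of the 2 libraries: 45.9 CPM in surface ectoderm of the non-elongated library, where replicate 1 had 5.05 CPM (ratio 9.08, 6.05 to 14.2), and 25.9 CPM in anterior epiblast of replicate 1, against 22.1 CPM (ratio 0.854, 0.662 to 1.09). Cells called surface ectoderm differed in their markers between the libraries: the 10 listed genes summed to 5021 CPM in the non-elongated library against 1139 CPM in replicate 1.

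Eras followed the anterior epiblast, with 46.4 CPM in the non-elongated library against 35.3 CPM in replicate 1, against 16.8 and 8.71 CPM in the caudal epiblast class. Spinal cord had the lowest level, 0.727 and 0.588 CPM, and midbrain was lower in the non-elongated library (12.3 against 22.1 CPM, ratio 0.555, 0.359 to 0.844). Dnmt3b was also highest in anterior epiblast (288 and 271 CPM) and was found in every class, with its lowest values in spinal cord (83.7 and 51.6 CPM). Dnmt3a varied least: between 12.5 and 29.7 CPM over the 7 non-elongated classes and between 15.3 and 22.8 CPM over the 6 classes of replicate 1 with at least 20 cells.

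**Figure D2:**
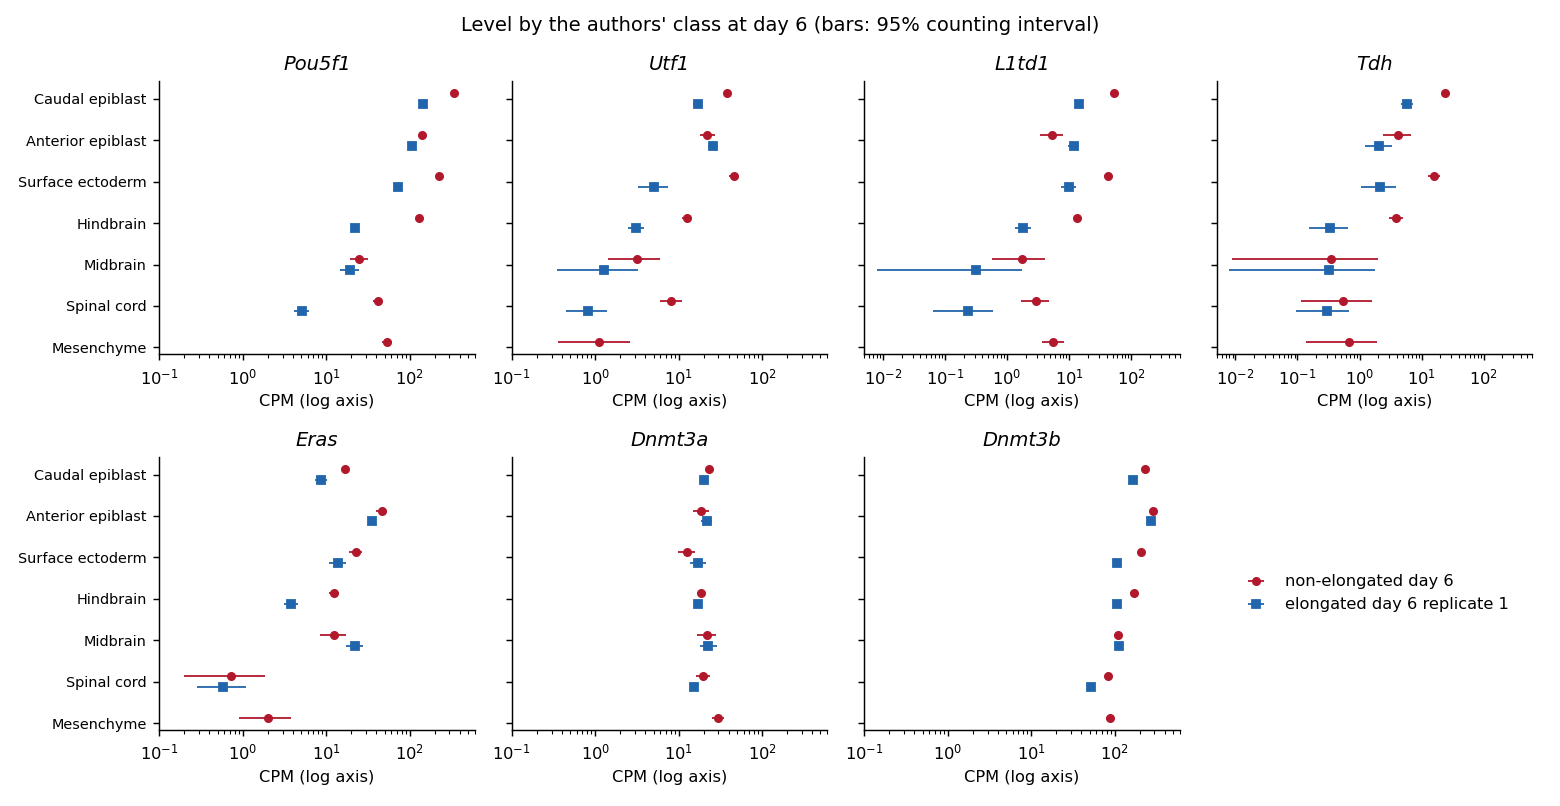
CPM (horizontal log axis) of the 7 genes in the authors' classes at day 6, in the non-elongated library (red circles) and elongated replicate 1 (blue squares), with bars for the 95% counting interval; mesenchyme of replicate 1 had under 20 cells and is not drawn. Pou5f1 is apart in hindbrain (129 and 22.1 CPM) and close in midbrain (24.9 and 19.3 CPM), and Dnmt3a stays between 12.5 and 29.7 CPM throughout.

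The caudal epiblast class made up 45.6% of non-elongated cells and 18.2% of replicate 1, and it held 71.8% and 52.6% of all Pou5f1 UMIs of these libraries. To see how much of the difference goes with class sizes, each library's class levels were averaged with the other library's class shares. The observed ratio of 4.15 for Pou5f1 became 2.87 with the shares of replicate 1 and 2.55 with those of the non-elongated library. For L1td1 it went from 6.04 to 3.63 and 3.73, for Tdh from 8.04 to 4.53 and 4.29, and for Utf1 from 3.51 to 2.60 and 2.48. Eras (1.84 to 1.70 and 1.75) and Dnmt3b (1.62 to 1.44 and 1.43) moved little. Equal class shares thus left each ratio above 1, with no test, since each side is 1 library.

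The epiblast classes were checked against lists of earlier and later pluripotency. Of the 20 formative and primed epiblast genes 18 were measured, and they summed to 1158 and 1050 CPM in anterior epiblast and 1005 and 812 CPM in caudal epiblast of the non-elongated library and replicate 1. The 12 naive genes measured of 14 summed to 429 and 208 CPM in anterior epiblast and 294 and 202 CPM in caudal epiblast. Klf2, which other cells also use, had the highest level of them in these classes. The other naive genes are named here after their values were seen. Nanog measured 30.5 and 18.3 CPM in anterior epiblast and 12.7 and 8.19 CPM in caudal epiblast. Over whole libraries it measured 10.8 CPM (non-elongated) and 5.15 and 6.40 CPM (elongated). Klf4 measured 80.4 and 38.4 CPM in anterior epiblast and 48.4 and 41.5 CPM in caudal epiblast. For Klf5 the values were 12.5 and 9.80, then 22.4 and 12.2 CPM, and for Gbx2 27.6 and 47.5, then 40.9 and 58.3 CPM. Tfcp2l1, Tbx3, Nr0b1 and Fgf4 reached at most 4.43 CPM in these classes. Zfp42, Esrrb and Prdm14 were below 1 CPM in all 6 libraries.

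In elongated replicate 2 no class was called epiblast, yet its Pou5f1 level resembled that of replicate 1. Of its Pou5f1 UMIs 91.2% lay in the class called mid/hindbrain, which held 90.5% of the cells and measured 48.8 CPM. The class called Pre-EMT cranial neural crest had the highest levels, with 107 CPM of Pou5f1, 16.6 of Utf1, 33.9 of L1td1, 3.53 of Tdh and 26.1 CPM of Eras in 52 cells. Spinal cord was lowest, at 15.1 CPM of Pou5f1. At a median of 59102 UMIs per cell, 74.0% of mid/hindbrain cells carried a Pou5f1 UMI, and 38.9% of spinal cord cells did at 56285. Thinned to 5000 UMIs per cell, the shares were 17.9% and 6.11%. These shares differed between classes of like depth.

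Counted per cell, Pou5f1 was widespread at day 6. A UMI was found in 81.4% of non-elongated cells, 45.4% of replicate 1 and 72.1% of replicate 2, whose cells were the deepest, and after thinning to 5000 UMIs in 49.6%, 17.0% and 17.8%. Cells with 10 or more UMIs made up 28.4%, 5.25% and 7.08%, and the highest cell of each library held 71, 56 and 43. The elongated replicates were alike after thinning and the non-elongated library stood above both. Cells with a UMI of at least 3 of the 5 core genes (Pou5f1, Utf1, L1td1, Tdh and Eras) made up 40.4% of the non-elongated library (38.4 to 42.5%), 10.4% of replicate 1 and 13.2% of replicate 2; thinned, 5.39%, 0.723% and 0.208%. In the caudal epiblast class the shares were 63.4% (non-elongated) and 28.8% (replicate 1). Were the 5 genes found independently of each other, 66.2% and 24.1% would be reached in that class without thinning. Thinned, the shares there were 9.57% (7.83 to 11.5%) and 1.32% (0.431 to 3.06%), against 6.42% and 0.642% if independent. The non-elongated share thus lay below the independent value without thinning and above it when thinned. Over the whole non-elongated library, replicate 1 and replicate 2, 35.1%, 3.49% and 9.07% would be reached without thinning, and 2.13%, 0.0595% and 0.0490% thinned. These differences were not tested.

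**Figure D3:**
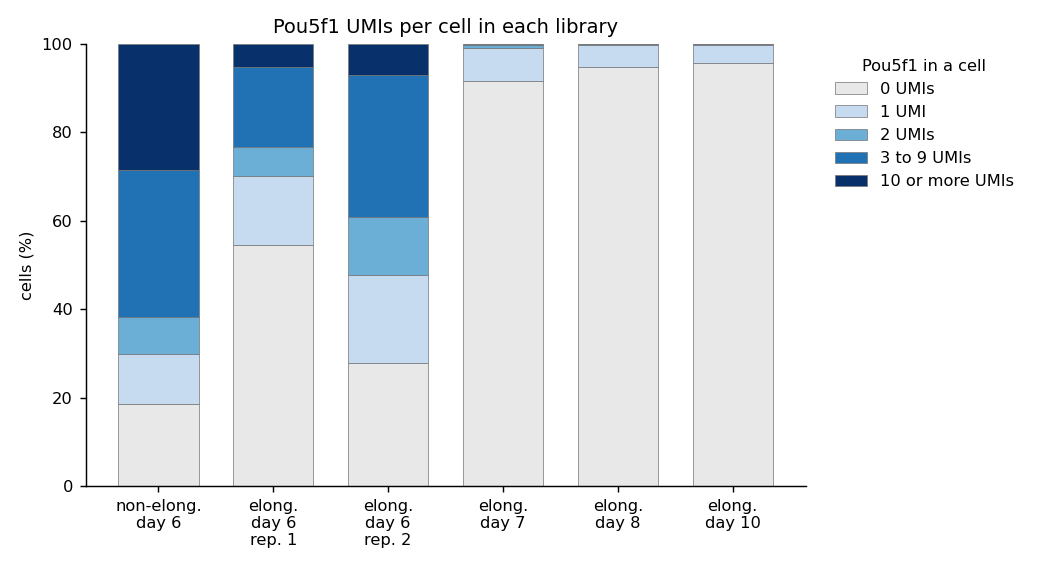
Share of cells (vertical axis, percent) by the number of Pou5f1 UMIs they hold, in each library, without thinning. Cells with 10 or more UMIs make up 28.4% of the non-elongated library and 5.25% and 7.08% of the elongated day 6 libraries, and nearly all cells of the later libraries hold 0 or 1.

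After day 6 the pluripotency genes fell in elongated organoids, and the largest part of the fall was measured by day 7. Of the 7 genes 6 were called lower at day 7, where edgeR called 3.99% of the 16379 genes tested, 2.09% as lower and 1.9% as higher. Pou5f1 fell 29.5-fold from the mean of the day 6 duplicates (log2 −4.88 ± 0.34, adjusted p 0.00292), Utf1 53.2-fold (−5.72 ± 0.67, 0.0064), L1td1 25.3-fold (−4.65 ± 0.45, 0.00382) and Eras 18.1-fold (−4.17 ± 0.43, 0.00412). Tdh, with 0 UMIs, was at least 51.3-fold lower, with 3 UMIs taken as the limit of that library (adjusted p 0.0284). DESeq2 (adjusted p 0.490) and a minimum count of 100 (0.0634) did not call Tdh. Dnmt3b fell 4.43-fold (−2.15 ± 0.29, adjusted p 0.0108). Dnmt3a did not pass the test (0.12 ± 0.29, adjusted p 0.893). Against replicate 2 alone, which shares a table with the later libraries, the log2 differences were −4.78 for Pou5f1, −4.91 for Utf1, −4.45 for L1td1, −4.13 for Eras and −2.23 for Dnmt3b. The sizes for Tdh and Utf1 rest on the replicate: Tdh was at least 18.8-fold lower against replicate 2 and at least 83.9-fold lower against replicate 1, and Utf1 34.8-fold and 71.6-fold.

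At day 8 and day 10 the same 6 genes were called lower, where 6.64% and 12.3% of all genes were (13.4% and 26.4% in either direction, 6.74% and 14.1% as higher). Dnmt3b went on falling, 9.64-fold at day 8 and 19.9-fold at day 10 (log2 −4.31 ± 0.33, adjusted p 0.000248). Eras was at least 376-fold lower at day 8, and Utf1 and L1td1 at least 210-fold and 187-fold lower at day 10 (Utf1 at least 137-fold against replicate 2). Pou5f1 was 36.7-fold lower at day 8 and 32.3-fold lower at day 10 (log2 −5.01 ± 0.34, adjusted p 0.000182). Tdh was called with edgeR at both days (adjusted p 0.0138 and 0.0095), and not with DESeq2 (0.325 and 0.255). Dnmt3a at day 10 was 1.65-fold higher (0.73 ± 0.29) and missed the threshold (adjusted p 0.102). Scaling by library size alone, which moved the median log2 of all genes at day 10 to 0.24, called it higher (0.98, adjusted p 0.0416) and turned the calls from 2302 higher and 2018 lower to 2991 and 1382. These comparisons share the day 6 controls.

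Markers of other cell types moved in the same comparison. At day 7, 6 of 10 surface ectoderm markers (median log2 −3.17) and 6 of 10 caudal epiblast and neuromesodermal markers (−5.72) were called lower, and 6 of 10 neural progenitor markers higher. Their sums went from 279 and 148 CPM at day 6 to 47.5 CPM at day 7 for surface ectoderm, and from 143 and 110 CPM to 14.6 CPM for caudal epiblast. Their part in the lower levels of the 6 genes was not tested at the level of whole libraries.

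A class of the same name could be followed in the table of the later libraries, with 1 library per day and no test. In mid/hindbrain, Pou5f1 measured 48.8 CPM in replicate 2 and 1.83, 1.48 and 1.93 CPM at days 7, 8 and 10. Eras measured 8.75 and 0.500 CPM and then 0, L1td1 4.12, 0.164 and 0.0150 CPM and then 0. Dnmt3b went from 141 to 32.1, 17.3 and 9.47 CPM, while Dnmt3a measured 21.1, 23.5, 22.6 and 36.3 CPM. The genes given here thus had nearly the course within this class that they had over whole libraries. The class held 90.5% of the cells in replicate 2, 82.2% at day 7, 52.3% at day 8 and 28.1% at day 10. Class and whole library therefore overlap most over the step from day 6 to day 7, and their likeness there is no separate result. No class of these libraries was called epiblast, and whether the class held like cells on each day was not tested.

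A slope over day was also fitted in the 5 elongated libraries, where edgeR called 23.8% of 15775 genes (12.5% as lower and 11.3% as higher; 1784 higher and 1965 lower, or 2452 and 1318 with library size alone). It called 5 of the 7 genes lower. Eras changed by −4.74 ± 0.38 per day on the log2 scale (adjusted p 0.00744), L1td1 by −4.00 ± 0.23 (0.00744) and Dnmt3b by −1.10 ± 0.16 (0.0125). Pou5f1 (−1.29 ± 0.40, adjusted p 0.0681), which lay between 1.52 and 1.89 CPM on all 3 later days, and Dnmt3a (0.17 ± 0.05, 0.0617) missed the threshold. Within the classes named as neural progenitors the same 5 genes were called. There 18.2% of 15403 genes were called, 10.1% as lower and 8.02% as higher. These were 1236 higher and 1562 lower, or 1488 and 1112 with library size alone. The sums held 1333 of the 2076 cells of replicate 1, where epiblast was a class of its own. In replicate 2, where no class was called epiblast, they held 2305 of 2402 cells. The day 6 sums may hold unlike cells, so this fit cannot tell a change within progenitors from one in class make-up. Both slopes rest on the replicates: without replicate 2 the first called 0 genes, and without replicate 1 or 2 the second called 0 and 5.

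Some Pou5f1 UMIs were found on every later day. It held 256, 181 and 173 UMIs at days 7, 8 and 10, when Eras held 71, 0 and 0, L1td1 30, 3 and 0, Utf1 16, 4 and 0 and Tdh 0 in each. Single UMIs made up most of it: 153 of the 162 cells with Pou5f1 at day 10 had 1 UMI and none had more than 3. No cell of the later libraries had 3 of the 5 core genes, which allows shares of such cells, by UMIs found, of up to 0.117%, 0.0899% and 0.0816% at days 7, 8 and 10 (3 cells of the total).

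At day 10 the remaining UMIs were spread over all 11 classes, from 0.981 CPM (Pre-EMT vagal/trunk crest) to 3.32 CPM (dorsal progenitors dP2/3, 2.11 to 4.99). Cells of the dorsal interneuron classes dI1, dI2 and dI3, neurons that should lack Pou5f1, carried it in 3.91%, 3.48% and 3.54% (median depths 20215, 18496 and 22509 UMIs), against 4.41% of all cells at 22053. Thinned to 5000 UMIs, the shares were 0.267 to 1.15% in the neurons and 1.03% over all cells. The thinned share over all cells, neurons included, lies within the range of the neurons. The source of these UMIs, expression or other, was not tested. The class with the highest thinned share was dP2/3, at 2.28% (1.05 to 4.29%, 9 cells), and spinal cord had the highest share without thinning, 7.02% (4.06 to 11.1%), but 1.32% thinned. At day 8 the thinned share was 0.899% over all cells, 2.04% in dI2 (98 cells) and 1.43% in dI3 (140 cells). The dI1 class (34 cells) held no Pou5f1 UMI at day 8. No neuron class had 20 cells at day 7.

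One cell stood apart from this low level. A day 7 cell of the Pre-EMT cranial neural crest class, singled out after its values were seen, held 21 Pou5f1 UMIs among 75272, or 279 CPM, which lies between the caudal epiblast levels of the non-elongated library (337 CPM) and replicate 1 (144 CPM). Beside them it held 6 UMIs of Nanog and 25 of Tfap2c (an AP-2 factor of early ectoderm, crest and germ cells). It also held 14 of Epcam, 11 of Krt8, 17 of Dnmt3b and 21 of Lin28a. Lower counts were 4 each of Cdh1 and Pax3, 3 of Pim2, 2 of Sall4 and 1 each of Sox2 and Dnmt3a. It held 0 of Utf1, L1td1, Tdh, Eras, Sox17, Klf2, Dnd1 and Cldn6. Its class had 35 Pou5f1 UMIs with this cell and 14 without it (4.79 and 1.94 CPM).

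The balance of the methylation enzymes shifted with the days. Dnmt3b gave 90.3% of all Dnmt3a and Dnmt3b UMIs in the non-elongated library, 87.2% and 86.5% in elongated day 6 replicates 1 and 2, 57.9% at day 7, 38.3% at day 8 and 16.7% at day 10 (15.6 to 17.9%). The share compares libraries only, since the genes may be captured unequally. In the day 6 table it was lowest in mesenchyme (74.8%) and spinal cord (81.0% and 77.1%), and highest in anterior epiblast and non-elongated surface ectoderm (92.6 to 94.2%). Spinal cord, named in both tables, gave 77.3% in replicate 2, 57.9% at day 7, 34.1% at day 8 and 13.6% at day 10. At day 8 the share was 9.46% in dI2, 12.5% in dI1 and 27.8% in dI3, against 43.3% in mid/hindbrain. Dorsal progenitors lay in a like range, with 17.9% in dP2/3 and 28.9% in dP1. By day 10 all classes lay between 10.1 and 20.7%.

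**Figure D4:**
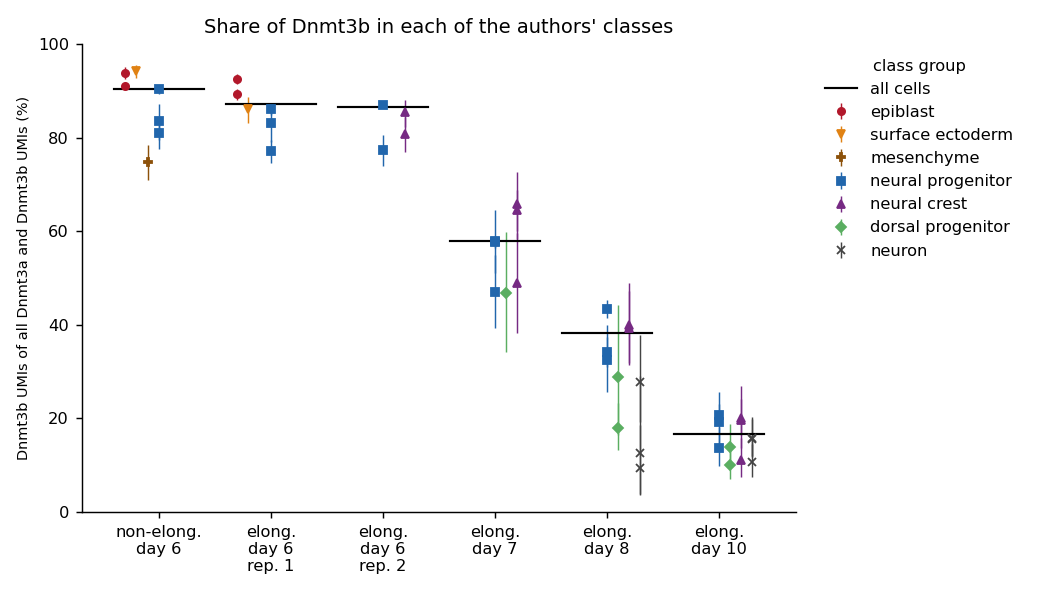
Dnmt3b UMIs as a share of all Dnmt3a and Dnmt3b UMIs (vertical axis, percent) in each library; points are the authors' classes with at least 20 cells, coloured by class group, bars are 95% counting intervals and black lines all cells. The lines go from 87.2% and 86.5% in the elongated day 6 libraries to 57.9%, 38.3% and 16.7% at days 7, 8 and 10.

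At day 10 the level of each enzyme also varied by class. Dnmt3a measured 68.0 CPM in Pre-EMT vagal/trunk crest, 59.4 CPM in migratory cranial crest and 30.6 CPM in dI1. The dI3 class, at 29.8 CPM, joined 2 unlike clusters of the authors, with 21.3 CPM in 298 cells and 74.7 CPM in 69 cells, the lowest and the highest of the 17 clusters. Dnmt3b was highest in migratory cranial crest (14.6 CPM) and lowest in dI2 (4.66 CPM). Of 11 other genes of DNA methylation measured, 0 passed the test at day 7 and 6 at day 10, 4 higher, among them Tet2 and Tet3, and 2 lower, beside 3.99% and 26.4% of all genes called, with a list median of −0.01 at day 10 and −0.01 over all genes. Uhrf1, which brings the maintenance methyltransferase to replicated DNA, fell by 1.35 ± 0.27 (adjusted p 0.0113) and Trim28 was called lower too (adjusted p 0.0289), while Hells (−1.07 ± 0.38, 0.073) did not pass.

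Other genes around the members were described by list, and each count of calls stands beside the 2.09% lower and 1.9% higher of all genes at day 7 and the 12.3% lower and 14.1% higher at day 10. Of 18 formative and primed epiblast genes tested, 8 fell at day 7 and 10 at day 10 (list medians −1.78 and −3.36), and of 11 naive genes 5 and 7 fell, with 1 higher at day 10. Lin28a, an RNA-binding protein that blocks let-7 maturation, measured 260 CPM in the non-elongated library, then 196 and 264 CPM in the elongated day 6 libraries, and 115, 37.7 and 10.8 CPM later. Sall4, a zinc finger partner of Pou5f1, went from 100.6 and 107 CPM at day 6 to 36.8, 17.7 and 3.45 CPM, called lower at day 7 (log2 −1.50, adjusted p 0.0284) and day 10 (−4.91, 0.000182). Klf2 fell from 57.0 and 77.7 CPM to 4.75 CPM at day 7 and 0.610 CPM at day 10.

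Around Tdh, none of 13 threonine and one-carbon genes passed at day 7, and 9 were lower and 1 higher at day 10 (median −1.12), where 3.99% and 26.4% of all genes were called in either direction. Gcat, which takes the product of Tdh to glycine, measured 138 and 122 CPM in the elongated day 6 libraries, 86.1 CPM at day 7 and 43.9 CPM at day 10 (log2 −1.57 ± 0.28, adjusted p 0.00738). Around Eras, none of 11 Ras and phosphoinositide 3-kinase genes passed at day 7, and 3 were higher and 2 lower at day 10, beside the same 3.99% and 26.4%. Hras measured 169 and 158 CPM at day 6 and 104 CPM at day 10 (−0.65 ± 0.26, adjusted p 0.108). The partners of Tdh and Eras thus stayed measurable in libraries where these 2 genes had 0 UMIs.

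Other POU factors took the opposite course in part. Of 9, 2 rose and 1 fell at day 7 and 6 rose at day 10 (median 5.10), beside 1.9% of all genes higher and 2.09% lower at day 7 and 14.1% higher at day 10. Pou3f2, a factor of neural progenitors and neurons, rose from 5.00 and 4.08 CPM at day 6 to 60.98 CPM at day 7 and 156 CPM at day 10 (log2 5.10 ± 0.28, adjusted p 9.27e-05 at day 10). Pou2f1, the broadly expressed Oct1, measured 41.0 and 43.3 CPM at day 6 and 30.4 CPM at day 10 and did not pass (adjusted p 0.218). Pou3f1 fell from 117 and 96.5 CPM at day 6 to 38.8 CPM at day 7 (adjusted p 0.0372) and measured 114 CPM at day 10.

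Over 40 sums of at least 50 cells of 1 class in 1 library, the level of Pou5f1 went with that of Utf1 and L1td1 (Pearson r of log2(CPM + 1) 0.949 and 0.947), of Dnmt3b (0.896) and Eras (0.890), and against that of Dnmt3a (−0.470). Sums of 1 library share its depth and its cells, so these are descriptions. Among 8751 genes, the patterns most like that of Pou5f1 were those of Zscan10 (0.965), Cbx7 (0.959) and Cdh1 (0.956). For L1td1 they were Cldn7, St14 and Cdh1 (0.969 to 0.962), for Utf1 Rab25, Esrp1 and Gm32585 (0.960 to 0.948), and for Tdh Tmem54, Esrp1 and Cldn7 (0.917 to 0.907). Eras had Pim2, 1700013H16Rik and Gngt2 (0.953 to 0.939), and Dnmt3b had Grb7, Ppan and 9130401M01Rik (0.957 to 0.954). Dnmt3a was less closely matched, by Ndufb4 (0.834), Lemd3 (0.823) and Nfia (0.811). Cdh1, the epithelial cadherin, was thus listed for both Pou5f1 and L1td1, and Cldn7, a claudin, for both L1td1 and Tdh.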

How the data were processed

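Gene expression was counted in single cells of 6 libraries. Per the submitters' processing notes, Cell Ranger 3.1 and mm10 were used; the strand setting and cell filters are not given in the sources used here. The authors deposited raw UMI counts for each cell, with metadata that give counts of UMIs and genes and the percent of mitochondrial UMIs. Deposited class names, barcodes and symbols carry no unit (other). The authors' classes were used.

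UMIs were summed per library, since cells are not replicates, over 17296 symbols present in both tables. Adjusted p-values came from edgeR 4.0.16 (quasi-likelihood test, R 4.3.3, limma 3.58.1). Genes under a minimum count of 10 were removed by filterByExpr, libraries were scaled by TMM, and Benjamini-Hochberg adjustment ran over all genes (threshold 0.05); DESeq2 1.42.0 was an alternative. Common dispersion corresponded to a coefficient of variation of 29.5%. The slope fits have 3 residual degrees of freedom. Their spread is that of the elongated libraries around a straight line over the days, so a curved course counts as spread. Log2 values against 1 replicate use a prior count of 2. Scripts were tested on simulated data. Class levels need 20 cells. Intervals are exact (Poisson or Clopper-Pearson, 95%); limits for a count of 0 are 3 UMIs or 3 cells. Both cover counting error only. Doublets were not called here. The 7 genes and all lists were chosen with earlier results of these data known. Besides the 7, the text names the 3 genes most correlated with each and up to 4 genes of highest mean CPM per list; others are said to be exceptions or are listed as called. Tried alternatives were scaling, filters, DESeq2, left-out libraries, thinning depth and per-cell means.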

Additional observations from a re-analysis of the deposited data

Results flagged for a closer look

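L1td1 went opposite ways in 2 kinds of class at day 6. In anterior epiblast the non-elongated library was lower than elongated replicate 1, with a ratio of 0.452 (95% counting interval 0.271 to 0.721), while in 4 other classes it was higher, with ratios from 3.68 to 12.4. The difference between classes was not tested, since each side is 1 library.

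Eras did so in midbrain, with a ratio of 0.555 (0.359 to 0.844), against 1.32 to 3.27 in 4 other classes whose intervals lay above 1. This rests on 35 and 70 UMIs in 102 and 86 cells, and the difference between classes was not tested.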

How the results depend on the processing

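No paired analysis was possible because the groups compared share no replicate numbers in the labels. At day 6, where edgeR called 0 genes and 0 of the 7, RLE scaling called 21 and 2 and DESeq2 127 and 3. At day 7 edgeR called 654 of 16379 genes, and 380 of 13197 with a minimum count of 100. The slope called 3749 genes, 6008 with DESeq2 and 1728 without the day 10 library. Without 1 of the day 6 replicates it called between 0 and 1723. Of the 7 genes 6 were then tested, and 0 were called without replicate 2 and 4 without replicate 1. Within progenitor classes the slope called 2798, 4982 with DESeq2 and 1142 without the day 10 library. Without 1 of the replicates it called 0 to 5 there. None of the 7 genes was among them, when 6 were tested without replicate 1 and 5 without replicate 2. Without the day 10 library the Pou5f1 slope passed (−2.73 per day, adjusted p 0.0427), as it did with DESeq2 (0.0186). DESeq2 did not call Tdh in either slope (0.170 and 0.100). Dnmt3a was called higher by both slopes with library size alone and with DESeq2. Of 252 fits of single genes under alternatives, 223 kept their side of the threshold, 17 lost a call, 12 gained one and 0 changed sign. Leaving out 1 of the day 6 replicates moved the Dnmt3a difference between −0.0417 and 0.216 for the non-elongated library and between −0.0054 and 0.252 at day 7; the other 54 of 56 such values kept their sign. Of 85 levels and shares under another thinning depth, per-cell means or a left-out cell, 45 moved out of their counting interval. The other 40 did not. Shares at a greater thinning depth are higher by design, so the 45 do not measure how firm the shares are. The causes of other moves were not tested. Depth limits the shares of cells with a UMI: Pou5f1 in replicate 2 mid/hindbrain was found in 17.9% of cells at 5000 UMIs and 32.1% at 10000.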

Other observations

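Germ cell markers, 8 measured of 9 listed, summed to 185 CPM (non-elongated), 125 and 140 CPM in the elongated day 6 libraries and 29.6 CPM at day 10. Ifitm3, also an interferon-induced gene of many cells, gave 94.3, 93.7 and 99.1 CPM of the day 6 sums and 2.17 CPM at day 10. The day 10 sum rested mostly on Kit (18.7 CPM) and Nanos3 (6.98 CPM). In the elongated day 6 libraries Kit measured 6.91 and 15.3 CPM and Nanos3 0.0548 and 0.120 CPM. At day 10, 4 of the 7 germ cell markers tested were called lower and 1 higher, beside 12.3% and 14.1% of all genes. Tfap2c, which the lists of germ cell and trophoblast markers share, measured 60.4 CPM (non-elongated), 14.2 and 11.4 CPM in the elongated day 6 libraries, 14.3 CPM at day 7 and 1.25 CPM at day 10, so at day 7, unlike Pou5f1, it was at the level of the elongated day 6 libraries. Endoderm markers, 6 measured of 8 listed, summed to 12.1 CPM for the non-elongated library, with 4.09 and 2.42 CPM in the elongated day 6 libraries.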
